A study of Mus musculus with 4 samples.

Results

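Desmin and the structural proteins of the Z-disc are encoded by 10 genes examined here, *Des*, *Actn2*, *Ldb3*, *Csrp3*, *Flnc*, *Tcap*, *Myoz2*, *Nebl*, *Synpo2l* and *Xirp2*. They were taken by gene symbol from the 23337 symbols of the deposited heart RNA-seq data, and all 10 were present in all 4 libraries. The study asked how loss of PIMT, the RNA cap methylase and coactivator-binding protein encoded by *Tgs1*, alters gene expression in the mouse heart. Each library was made from heart RNA of 5 C57BL6/J mice, males and females pooled, and each group has 1 library. The PIMT fl/fl groups, aged 2 and 6 months, carry loxP sites around exons 3 and 4 of the PIMT gene and no Cre. The csPIMT-/- groups, of the same 2 ages, carry the same floxed alleles and in addition a Cre transgene driven by the α-myosin heavy chain promoter, which acts in cardiomyocytes and leaves the gene intact in the other cells of the heart. Because 1 pool stands for each group, no difference at a single age has a replicate check, and intervals given for ratios cover counting error only.

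The Z-disc is the protein lattice that borders each sarcomere, where actin filaments of neighbouring sarcomeres are crosslinked by α-actinin and where titin is anchored. Desmin, the muscle intermediate filament protein, encircles the Z-discs and ties them to each other, to the intercalated discs, to mitochondria and to the nucleus. Mutations in several of these genes cause cardiomyopathy in people, and the lattice also serves as a platform for proteins that respond to stretch.

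The libraries held 29823073 to 40705783 reads assigned to genes, and 17169 to 17349 genes had at least 1 read. The deposited unit is a normalized count, that is, reads divided by a size factor of the library. For csPIMT-/- at 6 months the header names read counts, and the values were treated as normalized, since they are not whole numbers and lie on the median-of-ratios scale of the other 3. *Tgs1* stood at 580 in the PIMT fl/fl library at 2 months and at 816 at 6 months, and csPIMT-/- hearts had 160 and 162, although a count over the whole gene does not single out the deleted exons. *Nppa* and *Nppb*, the natriuretic peptide genes used as indicators of heart failure, were 5.27-fold and 2.48-fold higher in csPIMT-/- at 2 months and 4.53-fold and 8.58-fold higher at 6 months. The summed level of 9 cardiomyocyte markers differed little between genotypes, with ratios of 1.09 and 0.942 at the 2 ages, so the tissue label held in every library. Single markers varied more than the sum, in which *Myh6* was the highest gene. Their ratios ran from 0.389 to 2.03 at 2 months (5 higher, 4 lower) and from 0.257 to 1.94 at 6 months (4 higher, 5 lower). In markers of other cells 2 libraries stood apart. The 4 atrial markers other than *Nppa* were all lowest in the 2-month PIMT fl/fl library, with *Myl7* at 1045 there against 8084 to 42908 elsewhere. With *Nppa* included, the 5 atrial markers had a median genotype ratio of 49.9 at 2 months and 0.467 at 6 months. The part of this in the *Nppa* ratios was not tested. The 2-month csPIMT-/- library had a summed level of 3 lung markers of 1144 against 0 to 13.5 elsewhere and *Ucp1* at 1766 against 8.65 to 93.2. The 8 skeletal muscle markers summed to 700 and 201 in the controls of 2 and 6 months and to 351 and 555 in csPIMT-/-, and at 6 months 6 of the 7 compared were above 2-fold (median ratio 3.97). All 6 fibroblast markers had ratios above 1 at 6 months (median 1.92) and 2 of 6 at 2 months (median 0.838). Of 6 smooth muscle markers, 5 had ratios above 1 at 2 months (median 2.76) and 2 at 6 months (median 0.788). The 4 macrophage markers summed to 6846 and 14579 in the controls of 2 and 6 months and to 19491 and 25887 in csPIMT-/-. All 4 had ratios above 1 at 2 months, and 3 of 4 did at 6 months, with the other at 0.742. The part of these markers of other cells in the results below was not tested. In whole-heart RNA, fewer cells of a type and less RNA per cell cannot be told apart.

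Promoter stretches of 5 of the genes are shown, *Des*, *Flnc* and *Synpo2l* for the 3 largest genotype ratios at 6 months and *Xirp2* and *Ldb3*, like *Synpo2l*, for a muscle regulatory motif before the start. They are the 120 bases before a RefSeq gene start in GRCm38.p6, on the strand of the gene and 5′ to 3′, with a CArG box (the binding motif of serum response factor) or a MEF2 site (the motif of myocyte enhancer factor 2) in capitals. They lie at chr1:75360172-75360291 on the plus strand for *Des*, chr6:29433033-29433152 on the plus strand for *Flnc*, chr14:20668355-20668474 on the minus strand for *Synpo2l*, chr2:67445882-67446001 on the plus strand for *Xirp2* and chr14:34588682-34588801 on the minus strand for *Ldb3*.
Des: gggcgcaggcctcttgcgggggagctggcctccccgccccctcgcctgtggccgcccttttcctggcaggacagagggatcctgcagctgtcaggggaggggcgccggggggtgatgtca
Flnc: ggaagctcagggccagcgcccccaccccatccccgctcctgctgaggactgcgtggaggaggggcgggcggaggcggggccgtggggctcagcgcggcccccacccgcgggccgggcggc
Synpo2l: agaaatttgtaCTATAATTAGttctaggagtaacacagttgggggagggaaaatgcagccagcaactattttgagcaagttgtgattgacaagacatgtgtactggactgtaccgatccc
Xirp2: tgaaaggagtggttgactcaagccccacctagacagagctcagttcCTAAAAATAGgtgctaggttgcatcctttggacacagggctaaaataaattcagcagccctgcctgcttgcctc
Ldb3: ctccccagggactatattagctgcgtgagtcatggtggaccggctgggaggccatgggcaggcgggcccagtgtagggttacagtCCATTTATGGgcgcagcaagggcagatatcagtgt
Of the 10 genes, 9 had a window of 300 bases around at least 1 start, 16 windows in all, and *Tcap* had none. On either strand, a MEF2 site was found in windows of 3 genes, *Myoz2*, *Synpo2l* and *Xirp2*, and in 3.187% of all 32851 windows. A CArG box was found for 2 genes, *Ldb3* and *Nebl*, against 1.629% of all windows. The MCAT motif CATTCC was found for 2 genes, *Flnc* and *Nebl*, against 14.66% of windows, the E box CANNTG for 7 genes against 72.31%, and TATAAA for 0 genes against 13.62%. Several members have more windows than 1, so their shares are not on the same footing as that of single windows. For the genes with a MEF2 site, the genotype ratios at 2 and 6 months were 0.794 and 0.653 (*Myoz2*), 1.58 and 6.41 (*Synpo2l*) and 0.612 and 1.73 (*Xirp2*). Between the csPIMT-/- libraries of 6 and 2 months their ratios were 0.765, 3.62 and 10.8. The part of any motif in these ratios was not tested.

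*Des* encodes desmin and lies at chr1:75360329-75368579. The PIMT fl/fl libraries had normalized counts of 61588 at 2 months and 61406 at 6 months, and csPIMT-/- hearts had 153812 at 2 months and 269499 at 6 months. Both csPIMT-/- libraries were thus far above both controls, while the controls differed by a ratio of only 0.997 (95% interval 0.987 to 1.008). The csPIMT-/- level was 2.50-fold that of the control at 2 months (2.47 to 2.52) and 4.39-fold at 6 months (4.35 to 4.43). Of all genes compared, 89.3% had a lower ratio at 2 months and 96.2% at 6 months. *Des* alone took 0.179% and 0.172% of all reads in the controls and 0.418% and 0.716% in csPIMT-/- hearts. Per kilobase of transcript, its level was the fourth highest of the 10 genes in both controls and the highest in the 6-month csPIMT-/- library.

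*Flnc* encodes filamin C, the muscle filamin that crosslinks actin at the Z-disc and at the cell membrane, and lies at chr6:29433256-29461883. Normalized counts of *Flnc* were 26829 and 28819 in the controls of 2 and 6 months and 61325 and 64193 in csPIMT-/-. The 2 controls were close to each other, as were the 2 csPIMT-/- libraries, and the genotypes did not overlap. The ratio was 2.29 at 2 months (2.25 to 2.32) and 2.23 at 6 months (2.20 to 2.26), so unlike that of *Des* it was nearly the same at both ages.

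*Actn2* encodes sarcomeric α-actinin, the crosslinker that forms the Z-disc itself, and lies at chr13:12269426-12340760. For *Actn2* the normalized counts were 78052 and 54862 in the controls of 2 and 6 months and 103008 and 97117 in csPIMT-/-. Both csPIMT-/- libraries were above both controls, and the controls themselves differed by a ratio of 0.703 between ages. The csPIMT-/- level was 1.32-fold that of the control at 2 months and 1.77-fold at 6 months, with most of the gap between these ratios in the controls, since the csPIMT-/- libraries differed by a ratio of 0.943. Measured against *Actn2*, the ratio of *Des* was 1.89-fold larger at 2 months and 2.48-fold larger at 6 months.

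*Csrp3* encodes the muscle LIM protein, a Z-disc adaptor linked to stretch signalling, and lies at chr7:48830398-48848033. It had normalized counts of 26604 and 28684 in the controls of 2 and 6 months and 49283 and 38268 in csPIMT-/-. Its ratio was 1.85 at 2 months (1.83 to 1.88) and 1.33 at 6 months (1.31 to 1.35), and the groups did not overlap. *Tcap*, which encodes telethonin, the small protein that caps the Z-disc end of titin, lies at chr11:98383811-98384953. Telethonin transcripts had normalized counts of 13114 and 34903 in the controls of 2 and 6 months and 50775 and 45881 in csPIMT-/-. The 2-month control was far below the other libraries, and the controls differed by a ratio of 2.66, which exceeds the 1.31-fold difference between genotypes at 6 months. The ratio of 3.87 at 2 months was 1.45 when the 6-month control took the place of the 2-month control. The 2-month control is also the library with the lowest atrial markers, and the part of this in the *Tcap* ratio was not tested.

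*Synpo2l* encodes a synaptopodin-like actin-associated protein of the Z-disc and lies at chr14:20658946-20668354. Its normalized counts were 2770 and 2466 in the controls of 2 and 6 months, 4367 in csPIMT-/- at 2 months and 15819 in csPIMT-/- at 6 months. The 6-month csPIMT-/- library alone was far from the others, 3.62-fold above the 2-month csPIMT-/- library, whereas the controls differed by a ratio of 0.890. The ratio to the control of the same age was 1.58 at 2 months (1.50 to 1.65) and 6.41 at 6 months (6.16 to 6.68), the largest of the 10 genes at that age. *Xirp2*, which encodes an actin-binding Xin-repeat protein of intercalated discs and Z-discs, lies at chr2:67446002-67526614. The normalized counts of *Xirp2* were 7909 and 30187 in the controls of 2 and 6 months and 4843 and 52181 in csPIMT-/-. Age separated these libraries more than genotype did, with a 6-month over 2-month ratio of 3.82 in controls and 10.8 in csPIMT-/-. The genotype ratio was 0.612 at 2 months (0.590 to 0.636) and 1.73 at 6 months (1.70 to 1.75), so it had opposite directions at the 2 ages.

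*Nebl* encodes nebulette, the cardiac nebulin relative that reaches from the Z-disc along the actin filament, and lies at chr2:17343909-17731464. The gene has several starts, and its counts sum nebulette with shorter isoforms. Its normalized counts were 6960 and 10123 in the controls of 2 and 6 months and 1742 and 1687 in csPIMT-/-. Both csPIMT-/- libraries were far below both controls and close to each other. The ratio was 0.250 at 2 months (0.236 to 0.265) and 0.167 at 6 months (0.158 to 0.176), lower than that of any other of the 10 genes at either age. *Myoz2* encodes calsarcin-1, which binds α-actinin and calcineurin at the Z-disc, and lies at chr3:123006206-123035015. It had normalized counts of 30754 and 28628 in the controls of 2 and 6 months and 24429 and 18695 in csPIMT-/-. Its ratios of 0.794 and 0.653 were in the same direction as those of *Nebl* but closer to 1, and the groups did not overlap. *Ldb3*, which encodes the PDZ-LIM protein ZASP (also called Cypher) that binds α-actinin, lies at chr14:34526603-34588682. *Ldb3* had normalized counts of 28420 and 27206 in the controls and 28025 and 29722 in csPIMT-/-. The ratios of 0.986 (0.970 to 1.003) at 2 months and 1.09 (1.08 to 1.11) at 6 months were the nearest to 1 of the 10 genes, and the groups overlapped.

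**Figure D1:**
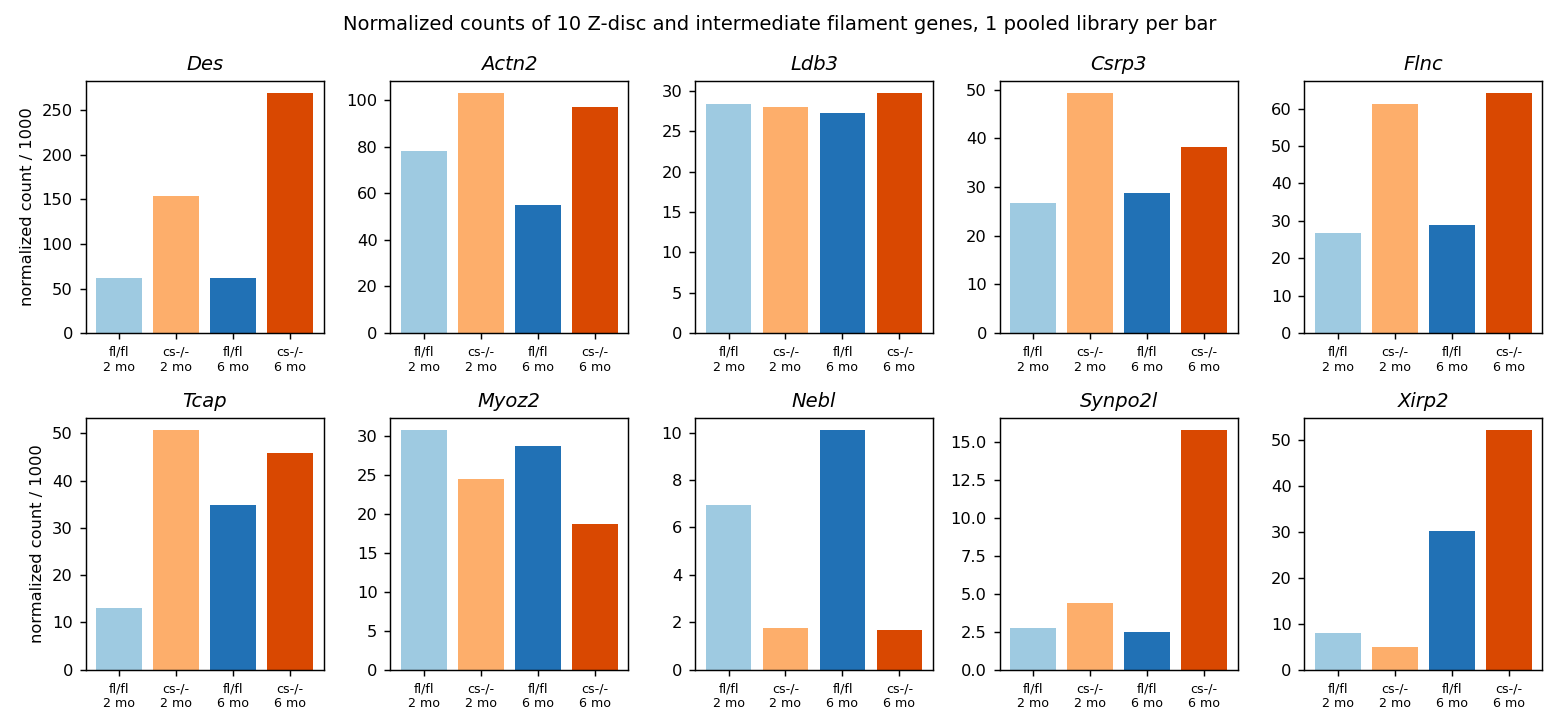
Bars give the normalized count, in units of 1000, of each of the 10 genes in the 4 libraries, 1 pooled library per bar, with PIMT fl/fl (fl/fl) in blue and csPIMT-/- (cs-/-) in orange at 2 and 6 months. *Des* stands at 61588 and 61406 in the controls against 153812 and 269499 in csPIMT-/-, *Nebl* is low in both csPIMT-/- libraries, and *Xirp2* is separated by age more than by genotype.

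Taken as a group of 10, 6 genes (*Des*, *Actn2*, *Csrp3*, *Flnc*, *Tcap* and *Synpo2l*) had both csPIMT-/- libraries above both controls, against 35.2% of all genes, 2 (*Nebl* and *Myoz2*) had both below, against 36.4%, and 2 (*Ldb3* and *Xirp2*) overlapped. A ratio above 2 was found for 3 of 10 at 2 months (*Tcap*, *Des* and *Flnc*), against 17.2% of all genes, and for 3 of 10 at 6 months (*Synpo2l*, *Des* and *Flnc*), against 16.8%. A ratio below 0.5 was found for *Nebl* alone at either age, against 22.3% and 24.8% of all genes. The median ratio of the 10 genes was 1.44 at 2 months and 1.52 at 6 months, against 0.999 and 1.003 over all genes compared. Together the 10 genes took 0.821% and 0.858% of reads in the controls of 2 and 6 months and 1.31% and 1.68% in csPIMT-/-. *Des* made up 21.8% and 20.0% of the reads of the 10 genes in controls and 31.9% and 42.6% in csPIMT-/-. Between the 2 controls, *Tcap* and *Xirp2* were above 2-fold, against 8.77% of all genes, and no member was below 0.5, against 4.63%. Between the csPIMT-/- libraries of 6 and 2 months, *Xirp2* and *Synpo2l* were above 2-fold, against 9.5% of all genes, and no member was below 0.5, against 8.11%. At both ages at once, *Des* and *Flnc* had a genotype ratio above 2, against 7.67% of all genes, and *Nebl* one below 0.5, against 15.9%.

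Per kilobase of transcript the order of the genes differed between genotypes. The 4 genes lowest in every library were *Nebl*, *Synpo2l*, *Xirp2* and either *Flnc* or *Ldb3*. *Nebl* stood at 861 and 1253 normalized counts per kilobase in the controls and at 216 and 209 in csPIMT-/-, where it was the lowest of the 10. *Myoz2*, at 26040 and 24240 per kilobase, was among the 3 highest in the controls and was the fifth in csPIMT-/-, at 20685 and 15830. Per *Actn2*, the *Myoz2* level per kilobase was 1.01 and 1.33 in controls and 0.605 and 0.491 in csPIMT-/-.

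A genotype effect over both ages could be tested, with the 2 libraries of each genotype and age as a covariate. In limma, with p-values adjusted over 14847 genes, *Des* rose by 1.73 on the log2 scale (SE 0.33, adjusted p = 0.026), *Flnc* rose by 1.17 (SE 0.23, adjusted p = 0.0269) and *Nebl* fell by 2.29 (SE 0.24, adjusted p = 0.0163). So 2 of 10 genes were called higher, against 11% of all genes, and 1 was called lower, against 17.5%. The differences of *Synpo2l* (1.67, adjusted p = 0.060), *Tcap* (1.17, adjusted p = 0.0891), *Csrp3* (0.65, adjusted p = 0.106), *Actn2* (0.61, adjusted p = 0.154) and *Myoz2* (-0.47, adjusted p = 0.167) did not pass. *Ldb3* and *Xirp2* had differences of 0.05 and 0.04 (adjusted p = 0.868 and 0.943). The fit leaves 1 residual degree of freedom. Without a mean trend of the variance none of the 3 calls was kept, with an adjusted p of 0.0654 for *Nebl*, 0.0721 for *Des* and 0.0769 for *Flnc*. With a library left out, age was dropped from the model as well. In such fits without the 2-month control the adjusted p was 0.0661 for *Des* and 0.0872 for *Flnc*, and without the 6-month control it was 0.0752 and 0.0791, while that of *Nebl* was at most 0.0348 whichever library was left out. With all 4 libraries and genotype alone in the model the 3 calls were kept (adjusted p = 0.0206 for *Des*, 0.0179 for *Flnc* and 0.014 for *Nebl*). *Synpo2l* passed with TMM scaling (adjusted p = 0.0415) and with no filter on low values (0.0381).

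The ratios followed the base composition of the transcripts. Over all genes, Spearman's rho between the ratio and the GC content of the transcript was 0.594 at 2 months (n = 14972 genes) and 0.620 at 6 months (n = 15037), and between the 2 controls it was -0.277. Across the 10 genes it was 0.915 at 2 months and 0.612 at 6 months, as a description over genes that share libraries. *Tcap* (61.3% GC), *Flnc* (58.4%), *Synpo2l* (56.5%) and *Des* (56.5%) are GC-rich, while *Nebl* (40.1%) and *Xirp2* (42.2%) are among the 11.4% of genes with the lowest GC content. When the trend of all genes on GC content was subtracted, *Des* was still 1.60-fold and 2.79-fold higher in csPIMT-/- and *Synpo2l* was 1.01-fold and 4.07-fold. *Nebl* then had ratios of 0.692 and 0.506, and *Flnc* 1.40 and 1.34. The *Xirp2* ratios became 1.39 and 4.48, which removed the opposite directions, and that of *Tcap* became 2.29 and 0.757. *Actn2* became 0.895 at 2 months and 1.18 at 6 months, *Csrp3* 1.59 and 1.08, *Myoz2* 1.04 and 0.873, and *Ldb3* 1.03 and 1.12. In limma with the trend subtracted, 0 of 10 genes passed. An unadjusted p under 0.05 was found for 3, *Nebl*, *Des* and *Xirp2*, with adjusted p-values of 0.154, 0.163 and 0.179. *Flnc* was not among them, and its adjusted p was 0.279. *Tgs1*, the targeted gene, had ratios of 0.277 and 0.199 at 2 and 6 months on the deposited scale, and with the trend subtracted it was not below 0.5 at either age. Whether the trend arose in library preparation or in the hearts was not tested.

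**Figure D2:**
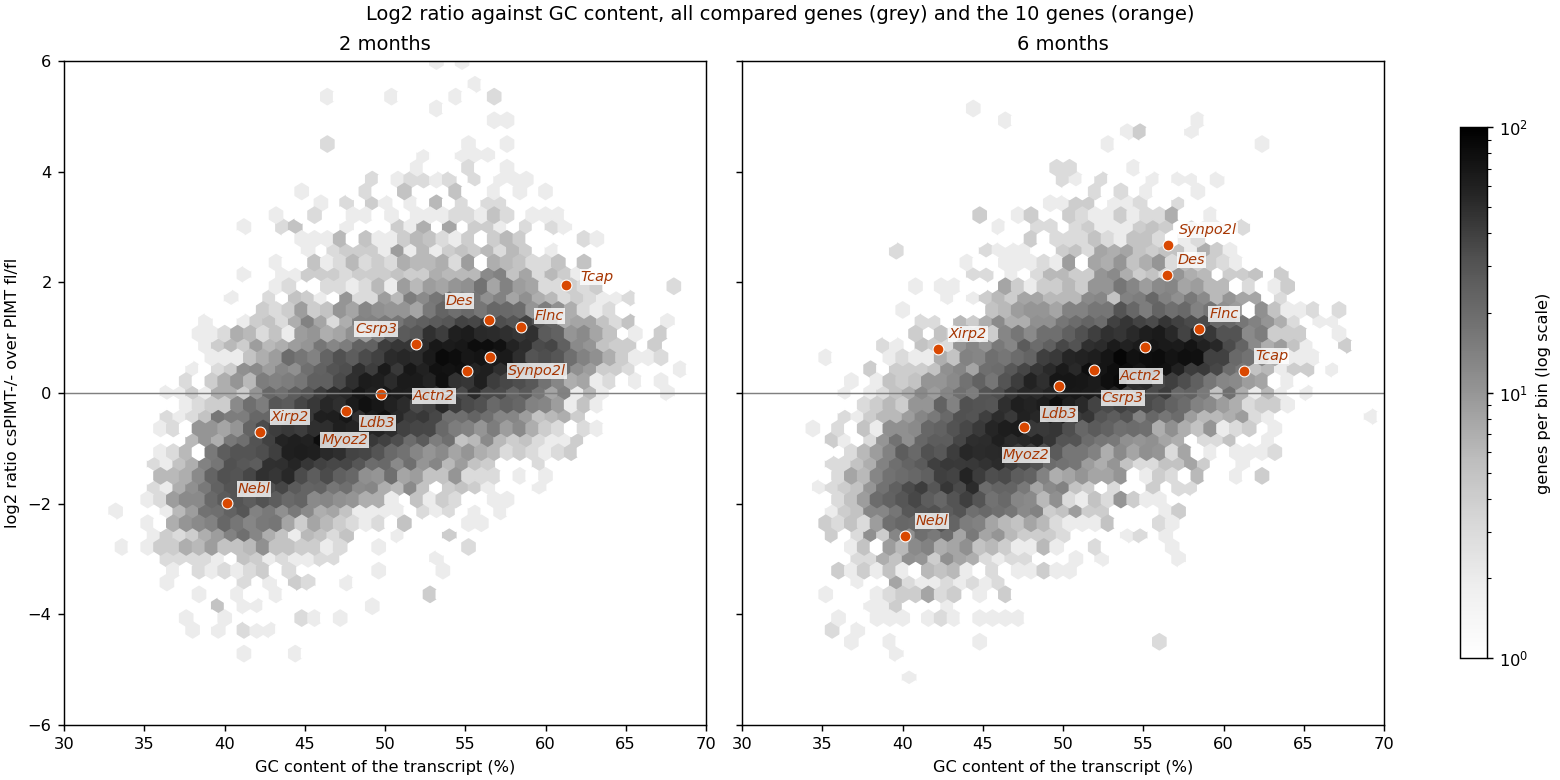
The log2 ratio of csPIMT-/- over PIMT fl/fl (vertical axis) is plotted against the GC content of the transcript in percent (horizontal axis) at 2 and 6 months, with all compared genes within the axis limits as grey bins and the 10 genes as orange points. The grey cloud climbs with GC content (rho 0.594 and 0.620), and *Nebl* lies in its lower left. At 6 months *Des*, *Synpo2l* and *Xirp2* lie more than 2-fold above the trend of the cloud.

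**Figure D3:**
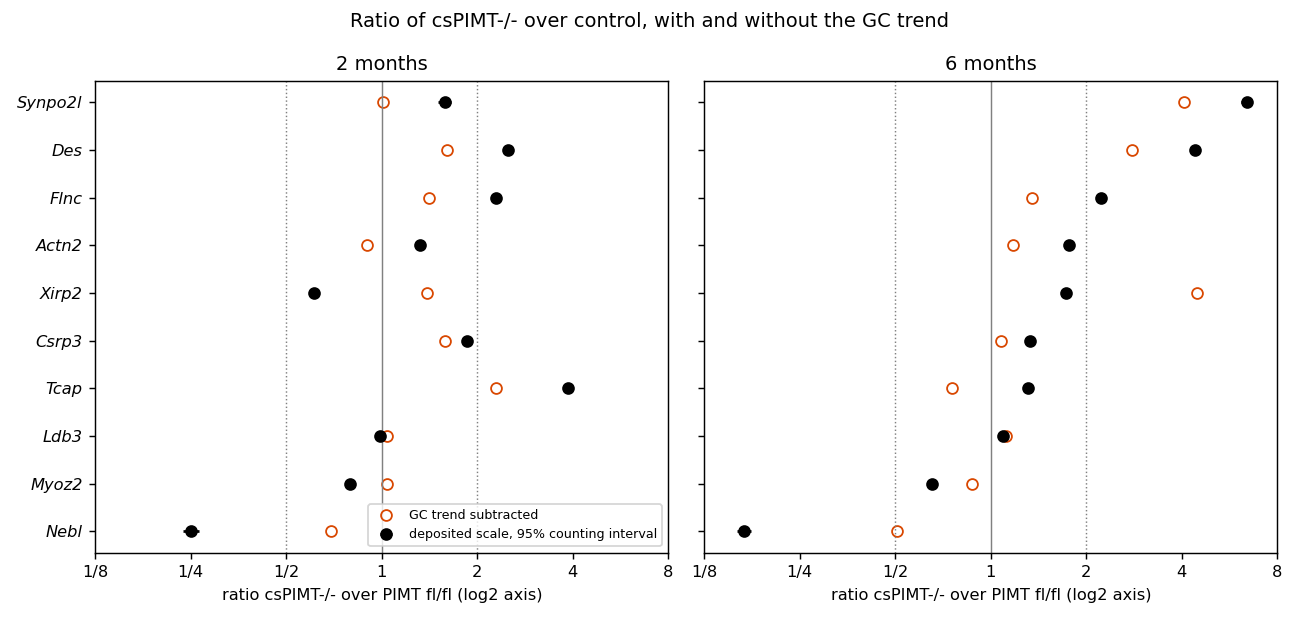
Filled points give the ratio of csPIMT-/- over PIMT fl/fl of each gene on the deposited scale with its 95% counting interval, mostly narrower than the point, and open points the ratio after the GC trend was subtracted, on log2 axes with lines at 0.5, 1 and 2. At 6 months *Des* and *Synpo2l* lie above 2 either way, and *Nebl* moves from 0.167 to 0.506.

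The other Z-disc genes, a list of 30, contain further crosslinkers, adaptors, chaperones and ubiquitin ligases. In limma 9 of 30 rose (*Ankrd2*, *Trim54*, *Myot*, *Fhl1*, *Cryab*, *Pdlim7*, *Pdlim3*, *Xirp1* and *Ankrd1*) and 4 fell (*Nexn*, *Capza1*, *Capza2* and *Cmya5*), against the 11% and 17.5% of all genes given above. With the GC trend subtracted, or without the mean trend, limma called no gene at all, so these calls and those of the lists below are lost in both. The median ratio of the list was 1.01 at 2 months and 1.57 at 6 months. *Ankrd2*, a stretch-responsive ankyrin repeat gene of skeletal muscle, had normalized counts of 0.865 and 15.0 in the controls of 2 and 6 months and 176 and 707 in csPIMT-/-, and the skeletal muscle markers given above were also higher in csPIMT-/- at 6 months. The 2-month control held 1 read of it, so the ratio of 204 has an interval of 36.0 to 8103, while that of 6 months was 47.3 (29.3 to 81.7). *Myot*, which encodes the α-actinin partner myotilin, had ratios of 3.27 and 5.07, and *Fhl1*, which encodes a LIM protein that binds titin, had ratios of 3.19 and 3.82.

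The lower members of this list were *Nexn* (nexilin, an actin-binding Z-disc protein), with ratios of 0.160 and 0.230, *Cmya5* (myospryn, a binding partner of desmin and α-actinin), with 0.395 and 0.165, and *Capza1* (an α subunit of the protein that caps actin filaments at the Z-disc), with 0.197 and 0.237. With the trend on GC content removed, 10 of 30 genes of this list were above 2-fold at 6 months and 3 were below 0.5, compared with 11 and 6 before. Of all genes, 2043 and 1913 of 15037 were past these limits with the trend removed, and 16.8% and 24.8% before. *Myot*, *Fhl1* and *Ankrd2* were then at 8.62, 3.79 and 28.4 at 6 months and *Cmya5* at 0.189, while *Nexn* and *Capza1* were at 0.723 and 0.571. *Neb*, the skeletal muscle relative of *Nebl*, had ratios of 1.55 at 2 months and 0.245 at 6 months, with a highest normalized count of 615, in the 6-month control.

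Of 14 other intermediate filament and linker genes, 3 rose in limma (*Krt8*, *Krt18* and *Lmna*) and 2 fell (*Nes* and *Dst*), against 11% and 17.5% of all genes. *Krt18*, an epithelial keratin, had normalized counts of 168 and 153 in the controls of 2 and 6 months and 1662 and 5007 in csPIMT-/-, with ratios of 9.90 and 32.7. *Krt8*, its partner in the keratin filament, had 37.2 and 29.0 in the controls and 434 and 312 in csPIMT-/-, with ratios of 11.7 and 10.8. Both keratins were far above the controls at both ages, though even then far below *Des*. The lung markers, from an epithelial tissue, summed to 0 and 1144 in the 2-month control and csPIMT-/- libraries and to 8.79 and 13.5 in those of 6 months, and their part in the keratin ratios was not tested.

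*Lmna*, which encodes the lamins A and C of the nuclear envelope, had ratios of 2.21 and 2.88. *Nes*, which encodes nestin, an intermediate filament protein that copolymerizes with others, had ratios of 0.222 and 0.312. *Dst* and *Dsp*, genes of linkers that tie filaments to junctions, had ratios of 0.453 and 0.573 and of 0.732 and 0.684. *Vim*, the filament gene most like *Des* in kind, had normalized counts of 17435 and 13985 in the controls and 20904 and 18529 in csPIMT-/-. Its ratios of 1.20 and 1.33 were smaller than those of *Des*, and it did not pass in limma (log2 difference 0.33, adjusted p = 0.271). The median ratio of the 14 genes was 1.42 and 0.979 at the 2 ages, and with the GC trend subtracted it was 0.905 and 0.661, with *Vim* at 0.870 and 0.926.

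The M-band, the other anchoring line of the sarcomere, was represented by 4 genes, whose adjusted p-values in limma were 0.188 to 0.401. *Myom1* (myomesin 1) had ratios of 0.608 and 0.802, *Myom2* of 1.39 and 1.10, *Myom3* of 1.34 and 1.60 and *Obsl1* of 1.33 and 1.23. With the GC trend subtracted, 3 of the 4 were below 1 at each age, with *Obsl1* at 0.776 and 0.701, and the median was 0.840 and 0.818. No M-band gene was past 2-fold at either age.

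**Figure D4:**
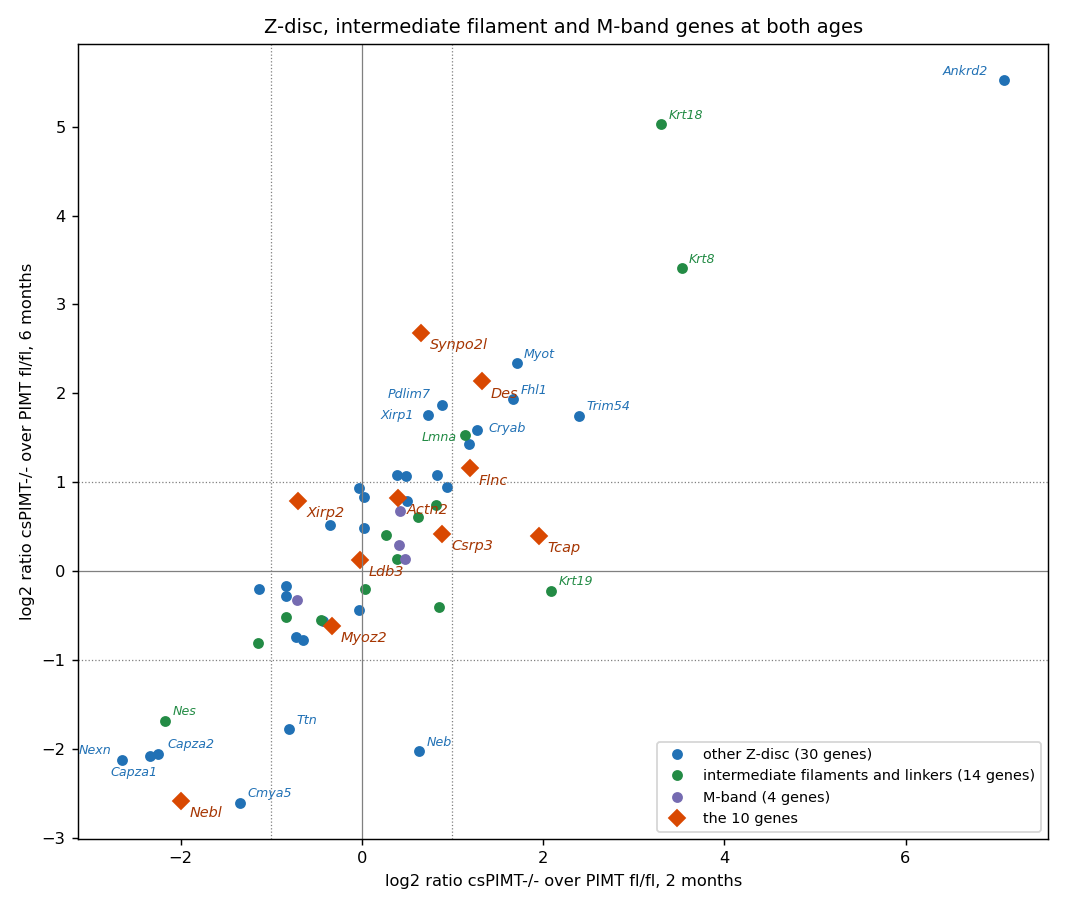
Each point is a gene, placed by its log2 ratio of csPIMT-/- over PIMT fl/fl at 2 months (horizontal axis) and 6 months (vertical axis), with the 10 genes as orange diamonds, 30 other Z-disc genes in blue, 14 intermediate filament and linker genes in green and 4 M-band genes in purple. Dotted lines mark 2-fold, and *Xirp2*, *Neb* and *Krt19* are among the genes with opposite directions at the 2 ages. For *Krt19* the 6-month ratio of 0.857 has a counting interval of 0.583 to 1.25, which includes 1.

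Relatives of the 10 genes in the genome were compared to see whether families differed as a whole. Of 22 relatives 21 had enough reads to be tested. In limma 6 of these rose (*Pdlim2*, *Pdlim3*, *Pdlim7*, *Csrp1*, *Synpo* and *Xirp1*) and 0 fell, against 11% and 17.5% of all genes. Of those with a negative difference *Pdlim5* had the lowest adjusted p, 0.1504. *Ldb3* had ratios of 0.986 and 1.09, while *Pdlim2* and *Pdlim7*, genes of the same PDZ-LIM family, had 4.25 and 3.71 and 1.85 and 3.66. *Pdlim5*, the relative of *Ldb3* with the highest counts, had 0.456 and 0.872, and *Pdlim1* had 0.977 and 1.91. *Flnc* contrasted with *Flna*, the widely expressed filamin gene, whose ratios were 1.67 and 0.816. *Actn1* and *Actn4*, the non-muscle α-actinin genes, had ratios of 1.50 and 1.71 and of 0.690 and 1.89. *Xirp1*, the relative of *Xirp2*, had ratios of 1.66 and 3.37, both above 1. *Synpo2*, a relative of *Synpo2l*, had ratios of 0.981 and 0.739. With the GC trend subtracted, the median ratio of the 21 relatives was 1.09 and 1.28 at the 2 ages, against 1.50 and 1.88 before. *Pdlim5* was then at 0.846 and 1.84, so its direction at 6 months reversed. *Pdlim2* was at 2.62 and 2.25, *Pdlim7* at 1.09 and 2.11 and *Pdlim1* at 1.07 and 2.06. No test was made of the difference between a gene and its relative.

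Among 7830 genes with at least 1000 reads in 1 library, those whose log2 levels over the 4 libraries, centred on their mean, lay nearest to *Des* were *Fxyd6*, *Mknk2* and *Pmm1*. *Mknk2*, had normalized counts of 8243 and 8221 in the controls of 2 and 6 months and 19783 and 32448 in csPIMT-/-. The nearest to *Actn2* were *Napa*, *Npr1* and *Raly*, at distances of 0.0355 to 0.0699. Likeness over 4 libraries is a description only.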

How the data were processed

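Poly(A)-selected RNA of 4 heart pools was sequenced as directional TruSeq libraries. Per the labels and the methods of the study, the authors checked reads with FastQC, used STAR to align them to mm10 and HTSeq 0.6.1p1 with a UCSC annotation to count them, and normalized the counts with DESeq2. The deposited values are signal, 1 normalized count per gene symbol and library. Dividing by the smallest nonzero value of a library gave whole numbers (largest deviation 4.9e-09 reads), so 100% of values gave whole reads within a tolerance of 0.01. The recovered reads totalled 29823073 to 40705783 per library.

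Ratios were computed on the deposited scale. Their 95% Clopper-Pearson intervals, from the recovered reads, cover counting error only. A gene was compared if either library had 10 or more reads of it, and log2 ratios used a pseudocount of 0.5 reads. No test was made at a single age. The only test was limma 3.58.1 on log2(normalized count + 1) with genotype and age in the model, a mean trend of the variance and Benjamini-Hochberg adjustment over 14847 genes with at least 10 normalized counts in 2 libraries, called at 0.05. Its residual degrees of freedom are 1 and its prior ones 4.01, and nothing says whether pools vary as mice do. edgeR 4.0.16 and DESeq2 1.42.0 on the recovered reads were alternatives. The methods were tested on simulated data that had no trend on GC content and no effect of age. Such data do not show how the methods behave with the GC trend seen here.

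GC content and length came from the longest protein-coding transcript of a symbol in GENCODE M21 (GRCm38), and the trend on GC was fitted by lowess (span 0.3). For *Csrp3* and *Myoz2* the longest transcript of any type keeps an intron and was used only as an alternative, chosen after seeing the data. Promoters came from RefSeq, GRCm38.p6. For *Flnc* the more upstream of 2 starts was printed, so that no transcribed base was included.

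The 10 genes, the lists and the tests were chosen with earlier results of these data known. All 10 genes were named. Of other lists, the 3 lowest and 3 highest ratios at 6 months among genes with at least 100 reads in 1 library were named, with the relatives, the genes nearest to *Des* and *Actn2*, and *Tgs1*, *Nppa* and *Nppb*. Other genes of the lists were named after their values were seen, to spell out counts. Values of some listed genes are not reported here. Reads shared with paralogs may be split or dropped in the counting. The sources used here give no sequencing batch. Of the marker lists, summed levels ran from 1501420 to 1776850 normalized counts for cardiomyocyte, 40742 to 349424 for atrial, 201 to 700 for skeletal muscle, 31119 to 67968 for smooth muscle, 142298 to 276667 for fibroblast, 34538 to 51240 for endothelium, 6846 to 25887 for macrophage, 1108 to 4356 for brown fat and 0 to 1144 for lung.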

Additional observations from a re-analysis of the deposited data

Results flagged for a closer look

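*Xirp2* was flagged because its genotype ratio had opposite directions at the 2 ages, 0.612 at 2 months and 1.73 at 6 months. With 1 library a group the difference between ages was not tested. The 2-month control level was 7909 and the 6-month control level 30187, and the 2-month csPIMT-/- library, at 4843, was the lowest of the 4.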

How the results depend on the processing

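The median log2 ratio of the 10 genes at 2 months was 0.53. It was 0.44 with scaling to the library total, 0.66 against the control of the other age, 0.69 against the mean of both controls, 0.26 with the GC trend subtracted and 0.43 with GC content of the longest transcript of any type. At 6 months it was 0.60, with 0.89 against the other control and 0.74 against the mean of both. With the GC trend subtracted it was 0.20 at that age, but 0.60 with GC content of the longest transcript of any type. Between the controls it was 0.05, and -0.0163 with size factors of the 2 libraries compared. Directions that reversed with the GC trend subtracted, given first for the protein-coding and then for the longest transcript, were those of *Actn2* at 2 months (0.895 and 0.886), *Xirp2* at 2 months (1.39 and 1.30), *Myoz2* at 2 months (1.04 and 2.11) and *Tcap* at 6 months (0.757 and 0.756). *Ldb3* at 2 months, whose interval includes 1, went from 0.986 to 1.03 and 0.999. *Myoz2* at 6 months reversed only for the longest transcript (1.91), and its GC content was 47.6% and 39.7% in the 2 transcripts. Of all genes, 3376 were below 0.5 at 2 months and 3773 at 6 months, against 1635 and 1913 with the GC trend subtracted, and 2602 were above 2 at 2 months, against 1723 with a minimum of 100 reads.

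In limma, 1637 genes were called higher and 2595 lower. Without a mean trend of the variance 0 genes and 0 of the 10 were called in either direction, with 2517 higher and 3448 lower at an unadjusted p under 0.05. With the GC trend subtracted the counts were again 0, with 1867 higher and 1687 lower unadjusted. edgeR called 1637 higher and 2521 lower, and DESeq2 2204 and 2996. DESeq2 called 4 of the 10 genes higher, adding *Synpo2l* and *Tcap*, and limma with TMM scaling or with no filter called 3, adding *Synpo2l*. Leaving out each library in turn, with age dropped from the model too, gave 274 to 1082 genes higher, 366 to 1882 lower, and 0 to 3 of the 10 genes higher. The count of 0 came without the 2-month control, 274 genes being higher then, and without the 6-month control *Tcap* alone was higher, with an adjusted p of 0.0387. With all 4 libraries and genotype alone 1905 genes were higher, 2706 lower and 2 of the 10 higher. A library left out leaves 1 library of its genotype, which is assumed to vary like the rest. Where the cause of a shift is not given by the alternative itself, the cause was not tested. No pairing of replicates was possible because each group has 1 library, though age in the model already sets each csPIMT-/- library beside the control of its age.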
